A study of Homo sapiens with 6 samples.

Results

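The genes described here make cholesterol and fatty acids or control their synthesis: 36 genes, taken by symbol from the 58780 human gene IDs of the deposited tables, with 17 sterol enzymes, 11 fatty acid enzymes, 7 regulators of the SREBP transcription factors and the sterol transfer gene STARD4. RNA was measured in HCT116, a human colorectal carcinoma line. The 2 groups, auxin for 16 h and the DMSO solvent control, had 3 libraries each, labelled as separate biological replicates. Auxin is a plant hormone with which a protein fused to a degron tag can be degraded, and the labels name neither such a protein nor a tagged clone. No auxin-treated cells without a tag were analysed here, so auxin itself and the loss of a protein cannot be told apart.

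As background, cholesterol is built from acetyl-CoA through mevalonate, farnesyl diphosphate, squalene and a series of ring reactions, and fatty acids are built from the same acetyl-CoA through malonyl-CoA. Most of these enzymes are targets of the SREBP proteins, which are made as membrane precursors in the endoplasmic reticulum. SCAP escorts the precursors to the Golgi when sterols are low, INSIG proteins hold SCAP back when sterols are high, and the proteases encoded by MBTPS1 and MBTPS2 release the active factors. SREBF2 is known mainly for sterol genes, and the SREBP1c product of SREBF1 mainly for fatty acid genes.

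The libraries held between 234037969 and 625895062 expected counts, which are estimated read numbers, and with either agent the replicate 1 library was the deepest. Of 10 colorectal epithelial markers, 9 reached 1 TPM (a relative level per transcript length) and VIL1 stayed at or below 0.02 TPM. Their summed level was 1795 to 2469 TPM with DMSO and 2265 to 2722 TPM with auxin. Of 12 markers of other cell types, 11 stayed below 1 TPM and PTPRC and CD3E, for example, were listed at 0; COL1A1 was the exception. The summed level of these 12 genes was 2 to 3.64 TPM with DMSO and 0.95 to 1.83 TPM with auxin.

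Among the sterol enzymes more genes rose than fell in the auxin libraries, and among the fatty acid enzymes more fell than rose; the difference between the 2 sets was not tested. Of the 17 sterol enzymes, 8 rose and 4 fell, with a median log2 fold change of 0.55, and of the 11 fatty acid enzymes 1 rose and 7 fell, with a median of -0.72. With an offset for the GC content of a gene's transcripts, 13 sterol enzymes rose and 3 fell, with a median of 0.57. Of the fatty acid enzymes 1 rose and 6 fell with this offset, with a median of -0.24. In that fit 33.4% of all tested genes rose and 23.4% fell. On log2(TPM + 1) the counts were 5 and 3, and 0 and 7, where 4.92% of all tested genes rose and 15% fell. Over all 36 genes, 11 rose and 15 fell and 10 did not pass the test (edgeR quasi-likelihood test, Benjamini-Hochberg adjusted p under 0.05), where 25.4% of the 19725 genes tested rose, 26.9% fell and 52.3% passed in either direction. The share that rose, 30.6% of the 36, was thus near that of all genes, and the share that fell was 41.7%. Only SQLE rose at least 2-fold, and 9 genes fell at least 2-fold, where 6.55% and 13.3% of all tested genes did. The median log2 fold change was -0.16 over the 36 genes and 0.02 over all tested genes. In the TMM-scaled fit the counts by role, above and below, stand against 25.4% and 26.9% of all tested genes. All 36 passed the filter on low counts. In these bulk samples, fewer cells expressing a gene and less RNA per cell cannot be told apart.

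The summed level of the 17 sterol enzymes was 572.4, 558.7 and 493.1 TPM in DMSO replicates 1 to 3 and 635.7, 659.8 and 652.6 TPM in auxin replicates 1 to 3. The 3 auxin libraries all lay above the 3 DMSO libraries, with means of 649.4 ± 12.4 and 541.4 ± 42.4 (SD, n = 3). For the 11 fatty acid enzymes the sum was 660.8, 534.9 and 509.8 TPM with DMSO and 471.9, 425.6 and 440 TPM with auxin. Here the auxin libraries all lay below, with means of 445.8 ± 23.7 against 568.5 ± 80.9 (SD, n = 3). The sum weighs abundant genes most. The mean of FASN alone went from 85.55 TPM with DMSO to 31.88 TPM with auxin. Means of SCD (160.6 and 177.7 TPM) and ACACA (28.46 and 33.15 TPM) were higher with auxin. Gene by gene, CPM (read counts relative to library size, TMM-scaled) lay above all DMSO values in all 3 auxin libraries for 11 of the 36 genes, against 30% of all tested genes, and below them for 17, against 30.4%, so that the groups did not overlap in 28, against 60.3%. On TPM the counts were 9 above, against 11.5% of all tested genes, and 17 below, against 26%. Replicates 2 and 3 alone, without the deeper replicate 1 libraries, gave 13 genes that rose and 16 that fell, where 30.2% and 31.8% of all genes tested in that fit did.

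**Figure D1:**
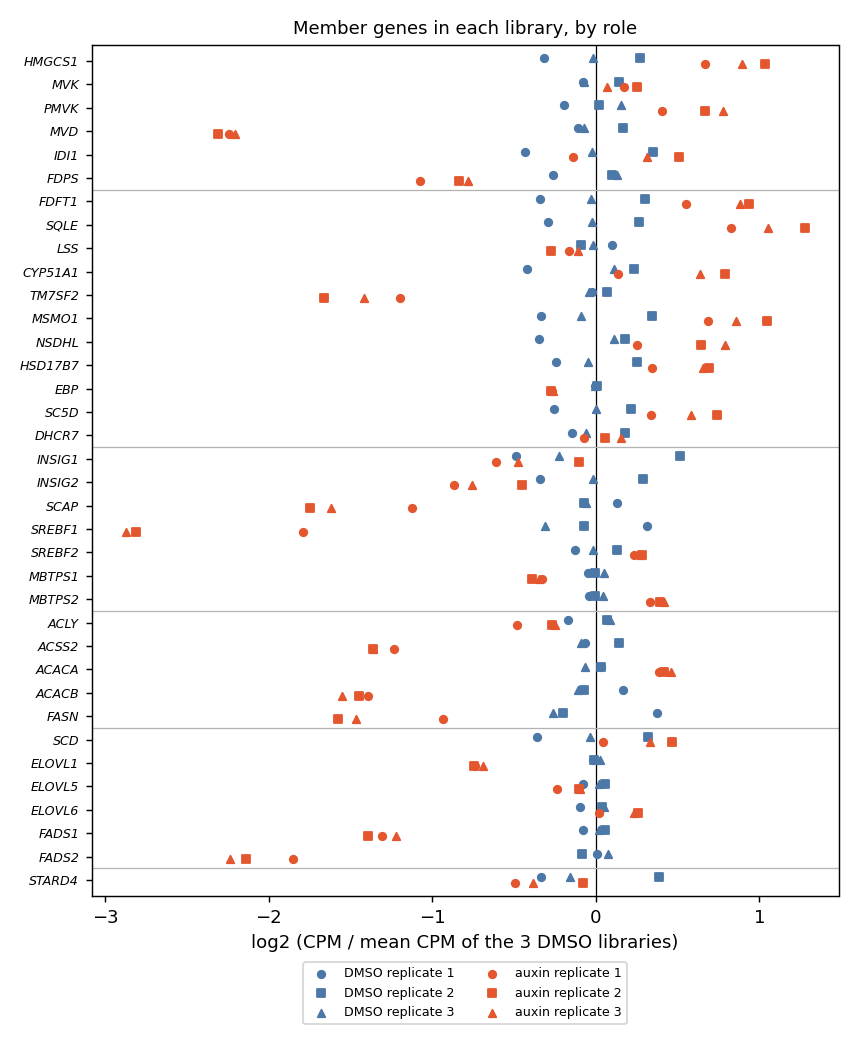
CPM of each of the 36 genes in each library, as log2 of the ratio to the mean of the 3 DMSO libraries (horizontal axis), grouped by role from mevalonate steps at the top to STARD4 at the bottom; blue marks are DMSO, orange marks auxin, and the shape gives the replicate number. The auxin marks of MVD, SREBF1 and FADS2 lie farthest to the left and those of SQLE farthest to the right, and CPM of the 3 auxin libraries lies beyond all DMSO values for 28 genes.

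The promoters of these genes were read from RefSeq (GRCh38.p14), from 250 bases before to 50 bases after the annotated start, and 33 of the 36 genes had an entry. FDFT1 and SQLE, which rose, and FASN, which fell, had none, so the counts below leave them out. The letters TCACNCCAC, the core of a sterol response element to which SREBP binds, occurred on either strand in 1 of the 33 promoters, that of SREBF2, and in 1.15% of the 27305 promoters of the table. CCAAT, the letters bound by NF-Y, a partner of SREBP, occurred in 20 of 33 (60.6%) against 35.7% of all promoters. By outcome, CCAAT was found in 6 of 9 promoters of genes that rose, 7 of 14 of genes that fell and 7 of 10 of the rest. The E-box CACGTG, which reads the same on both strands, occurred in 5 of 33 (15.2%) against 7.43%. The following 4 promoters are shown for the only sterol response element letters (SREBF2), for CCAAT in 2 sterol genes that rose (HMGCS1, MSMO1) and for CCAAT in a sterol gene that fell (MVD). Each is written 5′ to 3′ on the gene's strand, with TCACNCCAC and with CCAAT or its complement ATTGG in capitals; none of these letters overlap one another here.
SREBF2, chr22:41832855-41833154, plus strand: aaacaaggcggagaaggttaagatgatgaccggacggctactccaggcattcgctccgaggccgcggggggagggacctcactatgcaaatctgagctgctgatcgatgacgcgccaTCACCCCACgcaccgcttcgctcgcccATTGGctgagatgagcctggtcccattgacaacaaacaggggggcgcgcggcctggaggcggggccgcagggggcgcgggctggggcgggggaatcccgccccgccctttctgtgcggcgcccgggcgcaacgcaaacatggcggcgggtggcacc
HMGCS1, chr5:43313363-43313662, minus strand: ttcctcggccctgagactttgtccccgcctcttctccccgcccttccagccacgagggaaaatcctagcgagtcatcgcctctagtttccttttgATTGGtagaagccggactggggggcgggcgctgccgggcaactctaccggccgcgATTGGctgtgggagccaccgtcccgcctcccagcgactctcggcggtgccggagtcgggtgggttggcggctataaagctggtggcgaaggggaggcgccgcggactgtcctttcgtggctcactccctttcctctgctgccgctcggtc
MSMO1, chr4:165327419-165327718, plus strand: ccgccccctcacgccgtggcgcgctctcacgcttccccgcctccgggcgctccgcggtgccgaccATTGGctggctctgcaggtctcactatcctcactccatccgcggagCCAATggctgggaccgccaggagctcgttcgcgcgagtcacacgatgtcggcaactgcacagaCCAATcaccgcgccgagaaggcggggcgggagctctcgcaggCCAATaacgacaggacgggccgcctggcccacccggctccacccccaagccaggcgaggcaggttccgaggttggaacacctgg
MVD, chr16:88663042-88663341, minus strand: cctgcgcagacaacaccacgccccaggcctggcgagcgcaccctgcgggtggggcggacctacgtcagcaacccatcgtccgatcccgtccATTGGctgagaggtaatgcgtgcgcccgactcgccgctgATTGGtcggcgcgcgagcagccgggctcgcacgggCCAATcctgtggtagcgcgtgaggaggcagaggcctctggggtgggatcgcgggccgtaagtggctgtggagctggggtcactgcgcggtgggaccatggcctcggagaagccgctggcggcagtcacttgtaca
In the SREBF2 window the sterol response element letters begin at base -133 from the start and CCAAT at base -106. HMGCS1 held 2 such CCAAT matches, MSMO1 4 and MVD 3. A match describes the letters only.

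Of the 6 genes of the mevalonate steps, 2 rose and 2 fell, with a median log2 fold change of 0.21. HMGCS1 (ENSG00000112972.14, chr5:43289395-43313512, minus strand) encodes a synthase early in the pathway. It measured 81.5, 122.5 and 100.3 CPM in DMSO replicates 1 to 3 and 161.3, 207.8 and 188.2 CPM in auxin replicates 1 to 3. Every auxin library lay above every DMSO library, and HMGCS1 rose 1.83-fold (log2 0.87, SE 0.16, adjusted p = 0.003, edgeR quasi-likelihood test). PMVK, the phosphomevalonate kinase, rose by a log2 of 0.62 (SE 0.13), from 7.89 to 10.1 CPM with DMSO to 11.9 to 15.5 CPM with auxin.

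MVD (ENSG00000167508.11, chr16:88651935-88663161, minus strand), the mevalonate diphosphate decarboxylase, fell most among the enzymes of either lipid in the TMM-scaled fit; with the GC offset FADS1, FADS2 and ACSS2 were lower, and on log2(TPM + 1) these 3, FASN, FDPS and TM7SF2. Its level was 17.5, 21.3 and 18.0 CPM with DMSO and 4.00, 3.82 and 4.11 CPM with auxin. The groups were far apart and the auxin libraries differed little among themselves: MVD fell 4.77-fold (log2 -2.25, SE 0.10, adjusted p = 6.05e-06, edgeR quasi-likelihood test). FDPS, the farnesyl diphosphate synthase, fell by 0.89 on the log2 scale (SE 0.13), from 40.2 to 52.7 CPM with DMSO to 22.9 to 28.1 CPM with auxin. MVK, the mevalonate kinase, and IDI1, which interconverts the isoprene units, overlapped between the groups, with log2 fold changes of 0.17 and 0.25 and intervals of -0.06 to 0.40 and -0.28 to 0.79 (95%). With the replicate number as a block, which compares same-numbered libraries, both passed the test at 0.17 and 0.26. With the GC offset, MVK was at 1.08, PMVK at 1.5 and MVD at -1.19, and on the log2(TPM + 1) scale MVD was at -1.0 and PMVK did not pass.

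Of the 11 genes from squalene to the finished sterol ring, 6 rose and 2 fell, with a median log2 fold change of 0.56. With the GC offset 10 rose and 1 fell, where 33.4% and 23.4% of all tested genes did. On log2(TPM + 1) 4 rose and 1 fell, where 4.92% and 15% of all tested genes did. SQLE (ENSG00000104549.11, chr8:124998497-125022283, plus strand), the squalene epoxidase and a rate-controlling step, had the highest fold change of the 36 genes in the TMM-scaled fit, though not with the GC offset, where it was at 0.92 and PMVK (1.5) and MVK (1.08) were higher. It measured 65.5, 96.2 and 79.0 CPM with DMSO and 142.2, 194.3 and 166.5 CPM with auxin. The groups did not overlap, and SQLE rose 2.09-fold (log2 1.06, SE 0.16, adjusted p = 0.00137, edgeR quasi-likelihood test). It was under 2-fold (0.94) without DMSO replicate 1 or without auxin replicate 2, when no gene of the 36 passed that size; without DMSO replicate 2, 3 genes did.

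The other genes of this stretch that rose are spread along it. FDFT1, the squalene synthase, was at 0.80 (SE 0.17), with 85.6 to 133.6 CPM in DMSO and 159.1 to 207.7 CPM in auxin libraries. MSMO1, the sterol methyl oxidase, was at 0.87 (SE 0.18), with 76.6 to 122.5 and 155.5 to 199.5 CPM. NSDHL and HSD17B7, which act with MSMO1 in removing methyl groups from the ring, were at 0.58 (SE 0.18) and 0.57 (SE 0.15), and SC5D, a sterol desaturase, at 0.56 (SE 0.14). Their DMSO ranges of 15.3 to 22.0, 11.02 to 15.5 and 56.3 to 78.1 CPM lay below their auxin ranges of 23.1 to 33.6, 16.6 to 21.1 and 84.9 to 112.5 CPM. The NSDHL call was lost without DMSO replicate 1 (0.44), auxin replicate 2 (0.55) or auxin replicate 3 (0.46), and that of HSD17B7 without auxin replicate 2 (0.51) or 3 (0.53). Neither NSDHL (0.31) nor HSD17B7 (0.39) passed on log2(TPM + 1), and neither did on log2(TPM + 0.1).

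TM7SF2 (ENSG00000149809.14, chr11:65111845-65116384, plus strand), a sterol reductase of the ring, fell. Its levels were 7.0, 7.45 and 6.90 CPM with DMSO and 3.10, 2.25 and 2.67 CPM with auxin. No auxin library reached the DMSO range, and the fall was 2.66-fold (log2 -1.41, SE 0.13, adjusted p = 1.37e-04, edgeR quasi-likelihood test); with the GC offset it was -0.44. EBP, the sterol isomerase, fell by a smaller amount, with a log2 fold change of -0.27 (SE 0.06), from 20.2 to 20.4 CPM with DMSO to 16.7 to 16.9 CPM with auxin. That direction depended on scaling: EBP did not pass with upper-quartile factors (-0.15) or on log2(TPM + 1), and rose with the GC offset (0.24), with and without the block. CYP51A1, the lanosterol demethylase, was at 0.55 (95% interval 0.05 to 1.05, adjusted p = 0.0663, edgeR quasi-likelihood test), with 140.7 to 221.6 and 207.7 to 326.4 CPM. Its 3 same-numbered pairs all had more in auxin, and with the block it passed at 0.55; it also passed at that value with DESeq2 and at 0.72 without auxin replicate 1. LSS, the lanosterol synthase, was at -0.18 and passed only with the block (-0.18), or in the opposite direction with the GC offset (0.63). DHCR7, the last reductase, was at 0.05 (95% interval -0.18 to 0.28) and did not pass with the block. It was at 0.76 and passed with the GC offset.

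Among the 7 SREBP regulators, 2 rose and 4 fell, and the median log2 fold change was -0.38. The 2 genes for the SREBP factors themselves moved in opposite directions. SREBF1 (ENSG00000072310.16, chr17:17810399-17837002, minus strand) was at 26.4, 20.2 and 17.1 CPM with DMSO and at 6.15, 3.02 and 2.89 CPM with auxin. The highest auxin library, replicate 1, lay well below the lowest DMSO library, and SREBF1 fell 5.24-fold, the lowest fold change of the 36 genes in this fit (log2 -2.39, SE 0.33, adjusted p = 7.54e-04, edgeR quasi-likelihood test). SREBF2 (ENSG00000198911.11, chr22:41833079-41907308, plus strand) was at 121.2, 144.4 and 130.9 CPM with DMSO and 155.2, 160.8 and 159.9 CPM with auxin. All 3 auxin libraries were higher, and SREBF2 rose 1.2-fold (log2 0.26, SE 0.07, adjusted p = 0.0208, edgeR quasi-likelihood test). This small rise was lost without DMSO replicate 1 (0.21) or 3 (0.25), without auxin replicate 2 (0.25) or 3 (0.26), and on log2(TPM + 1), where the TPM ranges overlap. With the GC offset SREBF1 was at -1.36, above FADS2, and SREBF2 at 0.98. The miRNA genes MIR33B and MIR33A, which lie within SREBF1 and SREBF2, were listed at 0.

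SCAP (ENSG00000114650.19, chr3:47413694-47477126, minus strand), the escort of the SREBP precursors, was at 40.6, 35.3 and 35.6 CPM with DMSO and 17.05, 11.1 and 12.1 CPM with auxin. These groups did not overlap, and SCAP fell 2.77-fold (log2 -1.47, SE 0.16, adjusted p = 2.98e-04, edgeR quasi-likelihood test). With the GC offset it was at -0.63, and on log2(TPM + 1) it was at -1.0 and did not pass. INSIG2 (ENSG00000125629.14, chr2:118088452-118110997, plus strand), which retains SCAP, was at 28.9, 44.9 and 36.3 CPM with DMSO and 20.1, 26.9 and 21.7 CPM with auxin. The auxin libraries all lay below, and INSIG2 fell 1.6-fold (log2 -0.68, SE 0.18, adjusted p = 0.0145, edgeR quasi-likelihood test); without auxin replicate 3 it was at -0.64 and did not pass. INSIG1 (ENSG00000186480.12, chr7:155297776-155310235, plus strand), its paralog and itself a known SREBP target, was at 33.1, 66.6 and 39.9 CPM with DMSO and 30.6, 43.4 and 33.5 CPM with auxin. The groups overlapped, with replicate 2 highest in both, and the log2 fold change was -0.38 (SE 0.26, adjusted p = 0.267, edgeR quasi-likelihood test). Each same-numbered pair had less in auxin, and with the block INSIG1 passed at -0.33. The protease genes moved in opposite directions: MBTPS1 fell by 0.36 on the log2 scale (SE 0.05; 128.7 to 137.7 and 101.3 to 105.9 CPM) and MBTPS2 rose by 0.38 (SE 0.05; 58.2 to 61.7 and 75.2 to 79.8 CPM). Neither passed on log2(TPM + 1). MBTPS2 shares its locus and strand with YY2, which also rose (log2 0.87).

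All 5 genes that supply acetyl-CoA and build fatty acids passed the test, 1 higher and 4 lower, with a median log2 fold change of -1.30. With the GC offset 1 was higher and 2 lower, with a median of -0.23, where 33.4% and 23.4% of all tested genes were. FASN (ENSG00000169710.8, chr17:82078333-82098332, minus strand) encodes the fatty acid synthase. It measured 542.6, 365.3 and 350.6 CPM with DMSO and 219.6, 140.7 and 151.8 CPM with auxin. Replicate 1 was the highest library of each group and the groups did not overlap: FASN fell 2.46-fold (log2 -1.30, SE 0.23, adjusted p = 0.00243, edgeR quasi-likelihood test). FASN also had the highest transcript GC content of the 36 genes, 65.7%, and with the GC offset it was at -0.19 and did not pass, though with the block added it passed at that value.

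The 2 acetyl-CoA carboxylases, which make malonyl-CoA, moved in opposite directions. ACACA (ENSG00000278540.4, chr17:37084988-37406818, minus strand), the cytosolic form, was at 177.1, 176.9 and 164.9 CPM with DMSO and 225.8, 230.5 and 237.4 CPM with auxin. The auxin libraries were all higher, and ACACA rose 1.34-fold (log2 0.42, SE 0.06, adjusted p = 8.28e-04, edgeR quasi-likelihood test), a call lost on log2(TPM + 1), where the groups overlap. ACACB (ENSG00000076555.15, chr12:109116595-109268226, plus strand), the mitochondrial form, was at 8.26, 7.0 and 6.84 CPM with DMSO and 2.80, 2.70 and 2.51 CPM with auxin. These did not overlap either, and ACACB fell 2.76-fold (log2 -1.46, SE 0.11, adjusted p = 5.31e-05, edgeR quasi-likelihood test). It was the least abundant of the 36 genes, at 1.07 to 1.98 TPM with DMSO and 0.32 to 0.54 TPM with auxin, and its fold change on log2(TPM + 1) was -0.74.

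The enzymes that supply acetyl-CoA were both lower. ACSS2 (ENSG00000131069.19, chr20:34872146-34927962, plus strand), which makes it from acetate, was at 14.0, 16.2 and 13.8 CPM with DMSO and 6.24, 5.71 and 5.70 CPM with auxin. With a wide gap between the groups it fell 2.49-fold (log2 -1.32, SE 0.10, adjusted p = 3.97e-05, edgeR quasi-likelihood test). ACLY, which makes it from citrate, fell by 0.33 on the log2 scale (SE 0.10), from 336.0 to 400.0 CPM with DMSO to 270.8 to 317.5 CPM with auxin. The ACLY call was lost without DMSO replicate 2 (-0.31) or 3 (-0.29), without auxin replicate 1 (-0.25) or 2 (-0.36), with upper-quartile factors (-0.21) and with the GC offset (-0.23; it passed at -0.24 with the block added).

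Of the 6 desaturases and elongases none rose and 3 fell, with a median log2 fold change of -0.43. FADS1 (ENSG00000149485.18, chr11:61799625-61829318, minus strand) and FADS2 (ENSG00000134824.13, chr11:61792980-61867354, plus strand) encode the front-end desaturases of polyunsaturated fatty acids. FADS1 was at 74.9, 82.0 and 80.0 CPM with DMSO and 32.0, 30.0 and 33.8 CPM with auxin. It fell 2.47-fold without overlap (log2 -1.31, SE 0.07, adjusted p = 9.6e-06, edgeR quasi-likelihood test). FADS2 was at 7.0, 6.57 and 7.34 CPM with DMSO and 1.93, 1.58 and 1.48 CPM with auxin. It fell 4.17-fold, again without overlap (log2 -2.06, SE 0.13, adjusted p = 2.36e-05, edgeR quasi-likelihood test), and was at -1.42 with the GC offset and -1.35 on log2(TPM + 1). Annotated FADS1 lies wholly inside FADS2 on the opposite strand, over 29694 bases, and FADS2 also overlaps FEN1 on its own strand by 4265 bases. FEN1 fell as well (log2 -0.65). The libraries were stranded, but whether counting used the strand is not given in the sources used here, so reads in these overlaps are uncertain.

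ELOVL1, the elongase of very long saturated chains, fell by 0.72 on the log2 scale (SE 0.05), from 65.7 to 67.8 CPM with DMSO to 39.6 to 41.3 CPM with auxin, and was at -0.31 with the GC offset. SCD (ENSG00000099194.5, chr10:100347124-100364834, plus strand), the stearoyl-CoA desaturase that makes oleate, was the most abundant of the 36 genes by length-scaled level, at 142.8 to 176.6 TPM with DMSO and 175.6 to 181.6 TPM with auxin. It measured 667.4, 1066 and 833.5 CPM with DMSO and 882.9, 1180 and 1075 CPM with auxin. The groups overlapped, with replicate 2 highest in both, and the log2 fold change was 0.29 (SE 0.18, 95% interval -0.14 to 0.72, adjusted p = 0.222, edgeR quasi-likelihood test). With the block SCD passed at 0.31. ELOVL5, which extends polyunsaturated chains, and ELOVL6, which extends palmitate, were at -0.14 and 0.17 and passed with the block at the same values. STARD4, which carries sterols between membranes, was at -0.31 (95% interval -0.77 to 0.16) and passed with the block at -0.28.

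**Figure D2:**
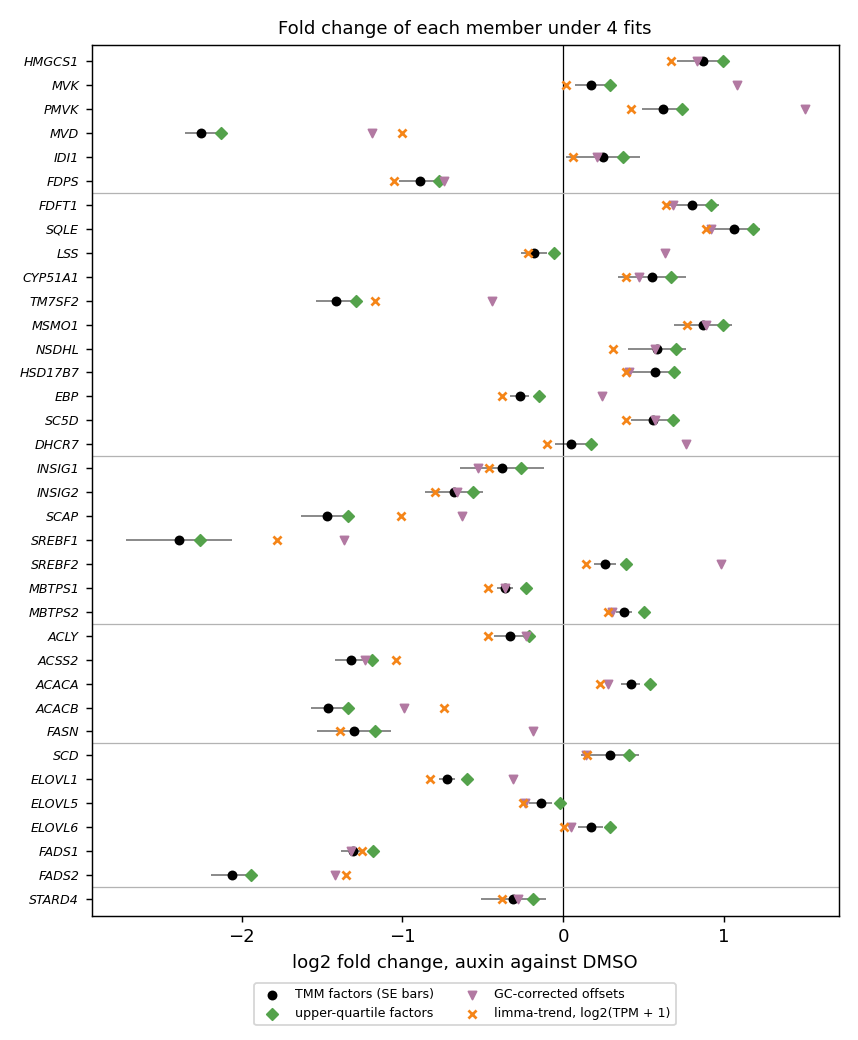
Log2 fold change of auxin against DMSO (horizontal axis) for the 36 genes under 4 fits: TMM factors with bars of 1 SE, upper-quartile factors, offsets corrected for GC content, and limma-trend on log2(TPM + 1). MVD and SREBF1 lie well left of 0 in every fit; EBP, LSS and DHCR7 have fits on both sides of 0, and FASN moves from -1.30 to -0.19 with the GC offset.

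How far these values depended on the scale differed by gene. Upper-quartile factors moved the median of all tested genes by 0.12 and raised the share of all calls that were higher from 48.5% to 59.7%; among the 36 genes 14 then rose and 13 fell, where 33.1% and 22.4% of all tested genes did. On log2(TPM + 1) the median moved by -0.14, 24.6% of all calls were higher, and 5 of the 36 rose and 12 fell, where 4.92% and 15% of all tested genes did. The replicate block gave 16 and 19, with all tested genes at 35.5% and 34.4%, and the 9 genes it added are those named above. With GC-corrected offsets 58.9% of all calls were higher, and 16 of the 36 genes rose and 13 fell, where 33.4% and 23.4% of all tested genes did.

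Fold changes followed the GC content of the transcripts, in these genes and in all genes. Across the 36 genes Pearson's r between GC content and log2 fold change was -0.59 and Spearman's rho -0.53; across 19676 tested genes they were -0.35 and -0.29. Genes share libraries and are not independent replicates, so these are descriptions. The 15 genes that fell had a median GC content of 55.6%, as against 46.5% for the 11 that rose and 44.8% for the other 10, and over all tested genes the same 3 medians were 55.4%, 46.6% and 47.8%. Between 45 and 50% GC, 3 of 5 of the lipid genes rose and none fell, and between 60 and 65% GC 3 of 4 fell and none rose. In those ranges 34.3% of all tested genes rose and 14.1% fell, and 9.13% rose and 56.2% fell. Between 50 and 55% GC, 1 of 6 of the lipid genes rose and 5 fell, with a median of -0.62. There 26.4% of all tested genes rose and 24% fell, with a median of 0.06. SQLE, MSMO1, HMGCS1 and FDFT1 lay above the median of all genes of like GC content, and MVD, SREBF1 and FADS2 below it. PMVK, MVK, SREBF2, DHCR7, LSS and EBP, all above 55% GC, lay above it too. SCAP, ACACB, ELOVL1, TM7SF2 and FASN, also above 55% GC, lay below it. Each range holds few lipid genes, and their difference from all genes was not tested. INSIG2, at 37.1% GC, fell where genes of like GC content had a median of 0.07. The part of GC content in these values was not tested beyond the GC offset, which by its construction also removes any difference between the groups that follows GC content.

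**Figure D3:**
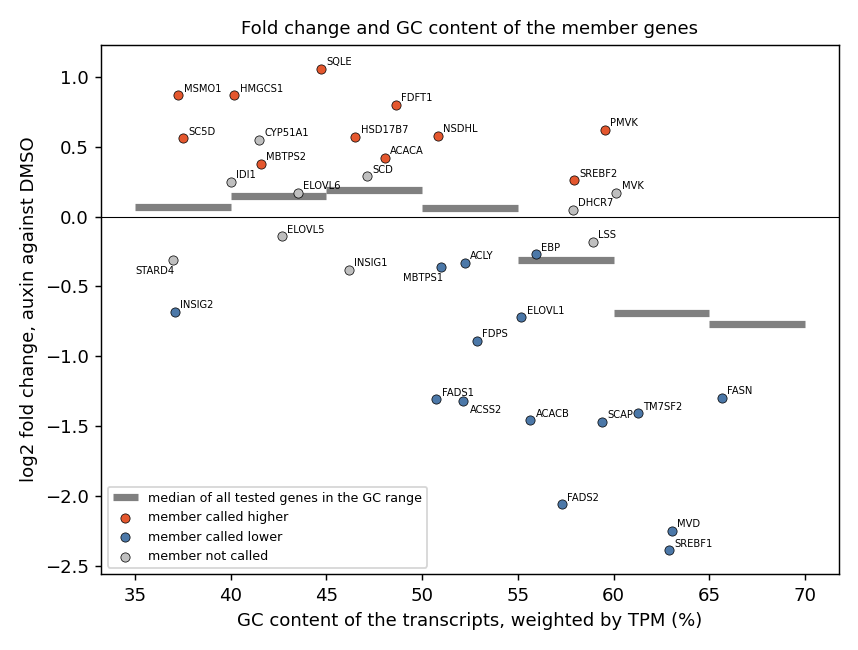
Log2 fold change of each of the 36 genes (vertical axis) against the GC content of its transcripts, weighted by TPM (horizontal axis, percent); red points rose, blue points fell, grey points did not pass, and grey bars are medians of all tested genes in ranges of GC content, the first and last bars standing for all genes below 40% and above 65%. The medians run from 0.19 between 45 and 50% to -0.77 above 65%, and MVD and SREBF1 lie well below their range's median.

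The deposited tables also estimate each annotated transcript. A gene was counted as shifted where a transcript's share of the gene's TPM moved by at least 10 percentage points without overlap between the groups. Of 33 genes with at least 2 transcripts and a mean of 1 TPM or more, 7 were shifted (21.2%), where 20.8% of 11209 genes were: MVD, NSDHL, SCAP, SREBF1, ACSS2, ELOVL1 and FADS1. At 5 points 12 genes were shifted, where 35% of all were, and at 20 points 5, where 8.94% were. For each single share, an exact permutation test over 20 assignments of 3 against 3 libraries cannot give a two-sided p below 0.1, and each share printed here had that p. The posterior SD that the authors deposited for these transcripts was at most 6.65% of the gene's count. That bound is set against the whole gene, so it does not limit the error of a transcript that holds few of the gene's counts.

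In MVD the TPM share of the full-length coding transcript was lower with auxin, and that of a short transcript at the start of the gene was higher. MVD-201 (chr16:88651935-88663110, 10 exons, 1823 bases) made up 72.1, 49.8 and 51.5% of the gene's TPM with DMSO and 23.6, 19.1 and 15.8% with auxin. MVD-204 (chr16:88662102-88663161), annotated as a processed transcript without a coding sequence, made up 8.34, 11.1 and 10.1% with DMSO and 58.8, 63.2 and 65.1% with auxin. The groups were well apart for both. MVD-204 is 217 bases long, of which 100 lie in exon 1 of MVD-201, 66 in its introns and 51 upstream of its start, so a few reads weigh heavily in its TPM. It had 34, 36 and 24 expected counts with DMSO and 143, 68 and 81 with auxin, against 9693, 4629 and 3808, then 1906, 629 and 587, for MVD-201. By counts MVD-201 thus stayed above MVD-204 in every library, also with auxin. The mean transcript length of MVD was 1329 bases with DMSO and 633 with auxin. Summed over coding transcripts, MVD was at 12.9 TPM with DMSO and 1.95 TPM with auxin, a log2 ratio of -2.73, where the TPM of the whole gene gave -1.08.

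In SREBF1 and SCAP the coding share was lower and the share of annotated transcripts that retain an intron was higher with auxin. The level of the retained intron transcripts was not higher throughout: in SREBF1 it was 9.84, 5.36 and 4.33 TPM with DMSO and 4.15, 1.51 and 1.47 TPM with auxin, and in SCAP 2.92, 0.63 and 1.29 TPM and 4.18, 0.85 and 2.75 TPM. In SREBF1 the auxin libraries all lay below the DMSO libraries, and in SCAP the groups overlapped. SREBF1-201 (19 exons) made up 29.9, 27.7 and 30.4% of SREBF1 with DMSO and 3.40, 4.26 and 4.76% with auxin. SREBF1-221, a retained intron transcript of 482 bases over exons 7 and 8 of SREBF1-201, made up 4.18, 5.81 and 2.15%, then 20.6, 21.8 and 21.0%. SREBF1-203, which lacks the first exon and is annotated for nonsense-mediated decay, made up 1.77, 1.79 and 1.61%, then 11.4, 12.8 and 13.3%. Retained intron transcripts together were 47.6% ± 0.972 of SREBF1 with DMSO and 70.7% ± 0.791 with auxin (SD, n = 3). The coding transcripts of SREBF1 were at 8.67, 4.50 and 4.05 TPM with DMSO and at 0.82, 0.25 and 0.23 TPM with auxin, so that their means, 5.74 and 0.433 TPM, differed by a log2 of -3.73. In SCAP, the coding transcript SCAP-216 (24 exons) made up 21.4, 35.9 and 30.3% with DMSO and 8.15, 16.7 and 9.65% with auxin. SCAP-211, a retained intron transcript of 508 bases over exons 3 and 4, made up 12.04, 3.65 and 10.1%, then 33.3, 14.8 and 42.8%. Auxin replicate 2 stood lowest for SCAP-211, and the gap to the highest DMSO library was small. SREBF1-221 and SCAP-211 are short beside SREBF1-201 (4178 bases) and SCAP-216 (4188 bases), so a few reads weigh heavily in their TPM shares. Coding transcripts of SCAP were at 8.69 TPM with DMSO and 2.88 TPM with auxin (log2 ratio -1.59).

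**Figure D4:**
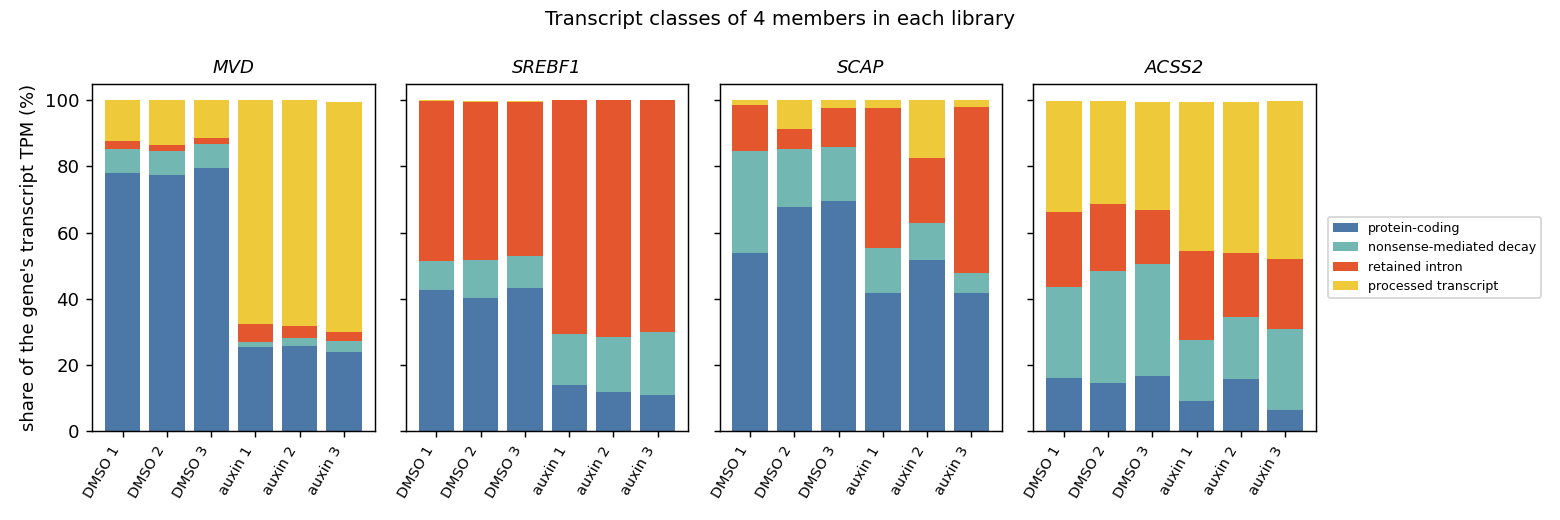
Share of each gene's transcript TPM (vertical axis, percent) by annotated transcript class in each of the 6 libraries, for MVD, SREBF1, SCAP and ACSS2. The coding share (blue) falls from a mean of 78.3% to 25.1% in MVD and from 42.1% to 12.2% in SREBF1, and the retained intron share (orange) rises from 10.6% to 37.5% in SCAP; shares, not levels, are drawn.

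In ACSS2 the shift ran between a processed transcript and one annotated for decay, and in NSDHL, ELOVL1 and FADS1 it concerned coding transcripts. ACSS2-210, a processed transcript, went from 16.8, 16.1 and 16.6% to 30.3, 31.8 and 26.6% of ACSS2, and ACSS2-214, annotated for decay, from 23.4, 31.9 and 33.3% to 14.2, 18.2 and 22.7%. NSDHL-201, the main coding transcript, made up 67.4, 73.8 and 74.7% with DMSO and 92.7, 94.1 and 96.7% with auxin, while NSDHL-203, also coding, made up 32.6, 18.8 and 13.9%, then 7.27, 2.87 and 3.27%. In ELOVL1 2 coding transcripts with different starts exchanged places. ELOVL1-201 went from 52.2, 34.1 and 33.4% to 13.6, 1.31 and 0.696%, and ELOVL1-202, which begins 56 bases farther upstream, from 5.25, 4.85 and 5.12% to 44.3, 36.4 and 39.3%. FADS1-204, a coding transcript that lacks the first exon of FADS1-201, went from 17.1, 14.0 and 13.2% to 1.20, 1.95 and 9.13%. Summed over coding transcripts, 9 of the 36 genes were above all DMSO values in every auxin library, where 11.7% of 14017 genes were, and 17 were below, where 32.7% were.

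Genes that surround these pathways were read from 4 lists. Among 23 tested genes of sterol transport, esterification and the oxysterol receptors, 4 rose and 9 fell, with a median log2 fold change of -0.09. OSBPL5, a lipid transfer protein, fell by 3.03 on the log2 scale (SE 0.21) and NR1H2, the receptor LXR beta, by 2.40 (SE 0.15). OSBPL1A, an oxysterol-binding protein, rose by 0.60 (SE 0.11) and LRP8, a lipoprotein receptor, by 0.49 (SE 0.08). Among 19 genes of the isoprenoid branches of the mevalonate pathway 7 rose and 3 fell (median 0.11), and 9 and 5 with the replicate block. RCE1, the protease of prenylated proteins, fell by 1.47 on the log2 scale (SE 0.20). PGGT1B, a subunit of a protein prenylation enzyme, rose by 0.65 (SE 0.05). The counts without the block stand against 25.4% and 26.9% of all tested genes, and those with the block against 35.5% and 34.4%. On log2(TPM + 1) none of the genes of these 2 lists passed as higher. As lower, 8 sterol transport genes and 2 isoprenoid genes passed there, where 4.92% of all tested genes rose and 15% fell.

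Among 32 genes of fatty acid elongation, activation and glycerolipid synthesis 11 rose and 10 fell (median 0.01), where 25.4% and 26.9% of all tested genes did. The 2 enzymes of the last step of triglyceride synthesis moved in opposite directions: DGAT1 fell by 2.91 on the log2 scale (SE 0.28), from 6.41 ± 1.68 to 0.848 ± 0.264 CPM, and DGAT2 rose by 1.25 (SE 0.10), from 2.81 ± 0.134 to 6.69 ± 0.513 CPM (SD, n = 3). LPIN3, a phosphatidate phosphatase, fell by 3.35 (SE 0.28) and GPAT3, a glycerol phosphate acyltransferase, rose by 0.89 (SE 0.11). Among 27 genes of SREBP trafficking, turnover and cofactors 11 rose and 5 fell (median 0.11), beside the same 25.4% and 26.9%. With the replicate block 15 rose and 8 fell, where 35.5% and 34.4% of all tested genes did. SEC24C, a coat protein of the vesicles that leave the endoplasmic reticulum, fell by 3.18 (SE 0.11), from 88.8 ± 1.14 to 9.80 ± 1.37 CPM (SD, n = 3). MLXIPL, the carbohydrate-responsive activator ChREBP, fell by 3.06 (SE 0.31), while the pseudokinase TRIB1 rose by 0.87 (SE 0.06) and the coactivator PPARGC1B by 0.84 (SE 0.07). On log2(TPM + 1), 4 of the glycerolipid genes passed as higher and 8 as lower, and of the trafficking genes 1 and 3. Of all tested genes 4.92% were higher and 15% lower on that scale.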

How the data were processed

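Per the labels, RNA of HCT116 cells given auxin for 16 h or DMSO (3 libraries each) was depleted of ribosomal RNA, made into stranded libraries and sequenced in paired-end runs of 151 cycles. The submitters' processing notes name bcl2fastq 2.20, STAR, DESeq2, GRCh38 and hg38; the quantifier, the annotation and the use of strand are not given in the sources used here. Per the file headers, the authors deposited expected counts (estimated, unnormalized), TPM and posterior SDs for each gene and transcript. All 58780 human gene IDs matched GENCODE release 29, which gave symbols, positions and transcript types. Spike-in counts were 0, and 649 numeric IDs that name no gene were left out. Those IDs held 2.55 and 4.08 CPM in replicate 1 with DMSO and auxin, and 10.6 to 11.1 CPM in the other libraries.

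Expected counts were rounded. Genes passing filterByExpr were fitted over all 6 libraries with edgeR 4.0.16 in R 4.3.3 (TMM factors, glmQLFit, glmQLFTest, Benjamini-Hochberg adjustment over all 19725 genes, adjusted p under 0.05), a procedure tested on simulated data. The simulated data held few changed genes, balanced in direction, and no GC trend or replicate effect. They therefore do not show how the fit behaves under changes as broad as those here. Fold changes are edgeR's, and intervals are 95%. P-values measure the spread between these libraries. Same-numbered libraries deviated together from their group means (correlations 0.65, 0.27 and 0.28), so the numbers were used to pair the libraries in the replicate block. The main fit did not pair them. Replicates 2 and 3 were not told apart by this check: DMSO 3 with auxin 2 gave 0.31 and DMSO 2 with auxin 3 gave 0.18. Chi-square per degree of freedom between replicates was 38.2 to 577.1, so none differed by as little as sampling noise. It was 218.7 to 577.1 where replicate 1 was compared. Between replicates 2 and 3 it was 121.2 with DMSO and 38.2 with auxin. Alternatives were other scaling (edgeR, DESeq2 1.42.0), filters, limma 3.58.1 on log2(TPM + 1) and log2(TPM + 0.1), the replicate block, GC offsets (loess span 0.5), thinning, and leaving out libraries.

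Values in each library are given for genes at least 2-fold changed and for SREBF1, SREBF2, INSIG1, INSIG2, SCAP, HMGCS1, SQLE, ACACA, FASN and SCD; of each further list, the 2 called genes farthest in each direction are named, except for a few genes that are not reported here. The 36 genes and the lists were chosen with earlier results of these data known.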

Additional observations from a re-analysis of the deposited data

How the results depend on the processing

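Calls of the 26 genes that passed kept their side of the threshold and direction in 455 single-gene refits, lost it in 37 and turned in 2 (EBP). The number of the 36 genes that rose (11) was 18 with the replicate block and GC-corrected offsets together, 5 on log2(TPM + 1) and 4 on log2(TPM + 0.1), and 8 to 13 with 1 library left out. Those at least 2-fold higher (1) numbered 0 with library size only and on both TPM scales, 2 with GC-corrected offsets whether blocked or not (PMVK and MVK, without SQLE), and 0 to 3 with 1 library left out. Those at least 2-fold lower (9) numbered 5 with GC-corrected offsets, blocked or not. LSS was at 0.63 and EBP at 0.24 under those same offsets, blocked or not. DHCR7 was at -0.04 with library size only, -0.10 on both TPM scales, and -0.01 to 0.13 with 1 library left out. A transcript shift of at least 5 points gave 12 genes in place of 7. With upper-quartile factors 11 isoprenoid genes rose and 3 fell, where 33.1% and 22.4% of all tested genes did. On log2(TPM + 1), 0 sterol transport, 0 isoprenoid, 0 beta-oxidation, 4 glycerolipid and 1 trafficking genes rose. In the same order 8, 2, 8, 8 and 3 fell, where 4.92% of all tested genes rose and 15% fell. The cause was not tested. The replicate block, which pairs same-numbered libraries, raised the counts from 11 and 15 to 16 and 19 and changed no other call among the 36. Depth limits little here: thinning every library to the smallest gave 11 and 15. Counting error is not the spread between cultures, and 3 libraries a group limit the precision.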

Other observations

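Fatty acid breakdown, the counterpart of the synthesis described above, was read from 27 tested genes of beta-oxidation. Of these 6 rose and 10 fell, with a median log2 fold change of 0.05, and 6 fell at least 2-fold, where 25.4% of all tested genes rose, 26.9% fell and 13.3% fell at least 2-fold. With the replicate block 10 rose and 12 fell, where 35.5% and 34.4% of all tested genes did. CPT1B, a carnitine palmitoyltransferase, fell by 3.78 on the log2 scale (SE 0.39), from 0.915 ± 0.349 to 0.0632 ± 0.0255 CPM (SD, n = 3), and ACADS, the short-chain acyl-CoA dehydrogenase, by 1.79 (SE 0.19), from 1.17 ± 0.0315 to 0.334 ± 0.0763 CPM. Both were low in all libraries, with at most 1.28 and 0.91 TPM. EHHADH, a peroxisomal enzyme, rose by 0.66 (SE 0.14) and DECR1, a mitochondrial reductase, by 0.46 (SE 0.16, adjusted p = 0.0492, edgeR quasi-likelihood test).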
